A study of Mus musculus with 16 samples.

Results

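The subject is the RNA of Msi2, the gene of the RNA-binding protein Musashi 2, in RNA–DNA proximity data of mouse embryonic stem cells (mESCs). Members are all listed pairs whose RNA tag carries the name Msi2. They numbered 5402 of 1305107 pairs in Input and 7270 of 1415135 pairs in H3K27me3-RADIP. Msi2 was selected on these same tables for its many pairs and for the reach of its DNA tags, so its pair counts, distances and bins are given as a description, with no test.

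RADIP joins RNA to chromatin close to it through a bridge adaptor in fixed nuclei and then pulls down the ligated molecules with an antibody, here against H3K27me3. Both groups were PGK12.1 mESCs, cultured with leukemia inhibitory factor and fixed with formaldehyde. The Input group was the same kind of ligated material kept back without antibody. The labels give 8 libraries for each group, which are not 8 biological replicates, since the study's methods count fewer replicates than libraries. However, each group was deposited as 1 merged table of significant pairs, so no replicate error can be given. All intervals below are 95% intervals that cover counting error only, and they compare these merged tables rather than the conditions. No molecular identifiers are present, and 6.52% (Input) and 9.06% (H3K27me3-RADIP) of the Msi2 pairs repeated the tag positions of another Msi2 pair.

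Musashi proteins bind single-stranded RNA through a tandem pair of RNA recognition motifs that read a UAG core, and they are best known for setting the translation of their target mRNAs in stem and progenitor cells. Musashi 2 is the broadly expressed family member and is known from blood stem cells and leukaemia. In these data the gene is measured as an RNA on chromatin, not as a protein. H3K27me3 is the mark that Polycomb repressive complex 2 writes over silent developmental genes, such as the Hox, Tbx and Dlx families in mESCs.

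In the annotation of the mm10 build, Msi2 (ENSMUSG00000069769.13) lies at chr11:88339382-88718513 on the minus strand and is 379 kb long, so downstream means lower coordinates. The longest model, Msi2-203, has 14 exons and 13 introns. Nearly all Msi2 RNA tags were intronic, with 5292 of 5402 in Input (98.0%, interval 97.5 to 98.3) and 7137 of 7270 in H3K27me3-RADIP (98.2%, interval 97.8 to 98.5). Over all protein-coding RNAs the intronic share was 88.9% and 89.6%. Tags in coding exons numbered 20 and 35. Pre-mRNA and excised intron cannot be told apart by these tags.

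The RNA tags were not spread evenly. Their density was higher after exons 6 and 7 than before them and declined across the long intron that followed. The 3 longest introns are introns 5, 6 and 7, with lengths of 122, 110 and 66.0 kb. Their junctions are printed because they bound these declines, and steps were measured across exons 6 and 7. Sequence is the mm10 reference read on the gene's strand, with exon bases in capitals and intron bases in lower case.

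exon 5 to intron 5, chr11:88712418-88712449: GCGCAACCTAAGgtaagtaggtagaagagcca

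intron 5 to exon 6, chr11:88590136-88590167: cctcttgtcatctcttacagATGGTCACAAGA

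exon 6 to intron 6, chr11:88590035-88590066: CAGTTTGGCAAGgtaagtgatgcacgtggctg

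intron 6 to exon 7, chr11:88480043-88480074: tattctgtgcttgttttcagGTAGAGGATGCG

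exon 7 to intron 7, chr11:88479986-88480017: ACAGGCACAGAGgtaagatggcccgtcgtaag

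intron 7 to exon 8, chr11:88413979-88414010: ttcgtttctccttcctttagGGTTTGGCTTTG

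All 3 introns start with GT and end with AG, the letters that the splicing machinery reads at intron ends. Each intron was cut into 4 equal segments. Across intron 5, these segments from 5′ to 3′ held 541, 456, 308 and 233 RNA tags in Input. The same segments held 718, 696, 400 and 257 in H3K27me3-RADIP. The density thus fell from 17.7 to 7.62 tags per kb in Input and from 23.5 to 8.41 in H3K27me3-RADIP. Across intron 6 the segments held 723, 524, 446 and 344 tags in Input and 912, 702, 626 and 445 in H3K27me3-RADIP. Intron 7 gave 343, 263, 204 and 137 tags in Input and 538, 337, 248 and 193 in H3K27me3-RADIP. In every one of these 3 introns and in both tables each segment held fewer tags than the segment before it. The first segment exceeded the last 2.32-fold (interval 1.99 to 2.71) in intron 5, 2.10-fold (1.85 to 2.39) in intron 6 and 2.50-fold (2.05 to 3.05) in intron 7 in Input. The ratios in H3K27me3-RADIP were 2.79 (2.42 to 3.22), 2.05 (1.83 to 2.29) and 2.79 (2.37 to 3.29).

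The last 15.0 kb of intron 5 held 97 RNA tags in Input, and the first 15.0 kb of intron 6 held 425. The step was 4.38-fold (interval 3.51 to 5.46) in Input and 5.26-fold (4.23 to 6.52) in H3K27me3-RADIP, where the counts were 98 and 515. Around exon 7 the counts rose from 192 to 324 in Input (1.69-fold, interval 1.41 to 2.02) and from 232 to 504 in H3K27me3-RADIP (2.17-fold, interval 1.86 to 2.54). Shares were already higher just before exon 7. Between windows of 7.58 kb centred at 224 and 231 kb from the start site they went from 1.63% to 2.055% in Input. In H3K27me3-RADIP they went from 1.44% to 1.77%. Shares peaked at 3.28% and 4.13% in the window centred at 246 kb and were 2.31% and 2.50% in the next. Soft-masked repeats covered 13.8% to 19.6% of the segments and their part in the slopes was not tested. From the first to the last segment the repeat share went from 17.0% to 19.3% in intron 5, from 13.8% to 16.3% in intron 6, where it rose at each segment, and from 19.6% to 14.9% in intron 7. Rises smaller than the exon 6 step also occurred elsewhere, read in windows of 7.58 kb and not in the 15.0-kb flanks. Within intron 5, between windows centred at 26.5 and 34.1 kb from the start site, the share of tags went from 1.78% to 3.07% in Input. In H3K27me3-RADIP it went from 1.86% to 3.08%. From the window centred at 353 kb, which spans exon 11, to the next in intron 11, the shares went from 0.87% to 2.09% and from 1.36% to 2.49%. From the 1st to the 2nd window of the gene they went from 1.65% to 2.91% and from 1.25% to 2.63%. The share of each segment that short tags can map to was not measured. Of the 7 annotated transcripts of the gene, 1 (Msi2-207, a retained-intron model) begins at exon 6, Msi2-206 ends there, and none begins at exon 7. Their part in the steps was not tested.

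**Figure D1:**
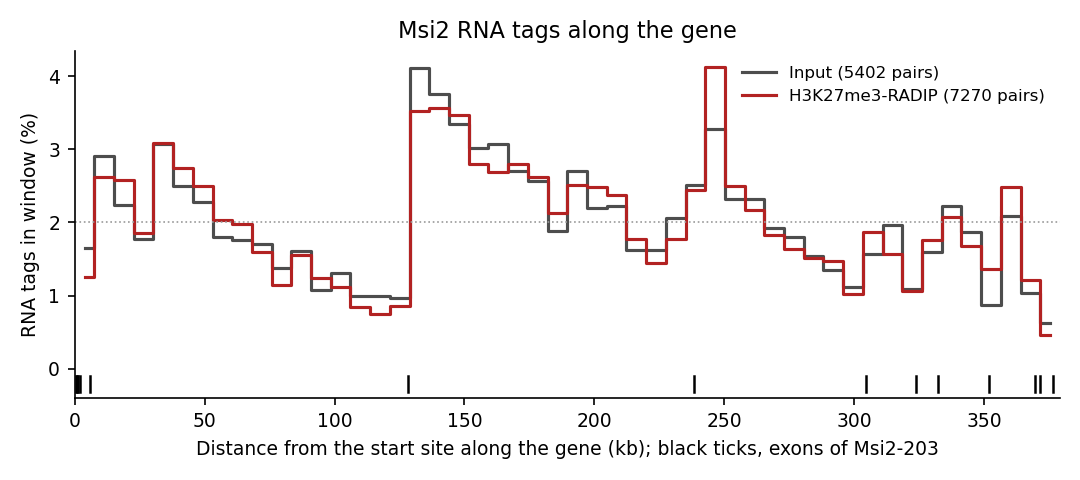
Share of Msi2 RNA tags (y axis, percent of the library's pairs) in 50 equal windows of 7.58 kb along the gene (x axis, kb from the start site) in Input (grey) and H3K27me3-RADIP (red). The dotted line is the 2% that an even spread would give and the black ticks are exons of Msi2-203, and the highest windows reach 4.11% in Input and 4.13% in H3K27me3-RADIP.

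The shape was close in both tables. The gene was cut into 3 equal parts. The 5′ part held 29.7% of the Input RNA tags (interval 28.5 to 30.9) and 29.4% of those of H3K27me3-RADIP (28.3 to 30.4), the middle part 43.7% and 43.9%, and the 3′ part 26.5% and 26.7%. Intron 6 alone gave 37.7% and 36.9% of all Msi2 tags. For introns 4 to 10 the interval of the ratio of shares between the tables included 1. Intron 11 held 196 and 321 tags, a share 1.22 times as large in H3K27me3-RADIP (interval 1.02 to 1.45). Intron 13, the last one, held 21 and 14 tags, a ratio of shares of 0.495 (interval 0.252 to 0.974). The antisense gene Gm15893 lies within intron 11, and 110 and 189 Msi2 tags fell inside its bounds. Gm15893 had no listed pair of its own in either table.

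Single RNA positions seldom recurred. Of 9835 distinct tag positions, 677 were seen in both tables, and 8 were paired with at least 4 different DNA positions in each. These 8 were picked by that limit and had 4 to 8 pairs each in Input and 4 to 10 in H3K27me3-RADIP, and 6 of them lay in intron 6. Their 25-base reference windows on the RNA strand follow, with each TAG, the DNA spelling of the Musashi core UAG, in capitals.

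chr11:88489531-88489555: ccaccatcgagccgtgTAGctttcc

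chr11:88576906-88576930: agccactgagatgggtgccttgaaa

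chr11:88578141-88578165: ttaattgtcccgagccggacttcct

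chr11:88584437-88584461: atcctctgaagtggtttgcgcaggt

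chr11:88587493-88587517: tccagtatgcacacgacagtgcccc

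chr11:88581096-88581120: ggctatataccaccacacttggttc

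chr11:88596662-88596686: tggactcagtaagcactacattctc

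chr11:88640438-88640462: gcctgtgaggtcatTAGtgcctggg

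The last 2 lie in intron 5, and 2 of the 8 windows hold a TAG. The 5 before them lie between 131 and 142 kb from the start site, in the tag-rich 5′ end of intron 6 that follows the exon 6 junction printed above. The position at 88489531 joined 7 DNA positions in Input and 10 in H3K27me3-RADIP, which lay in 6 and 8 different bins. TAG, searched on the RNA strand only, was present in 25.9% of the Input RNA tags of Msi2 (interval 24.7 to 27.1) and 27.1% of those of H3K27me3-RADIP (26.1 to 28.1). It was present in 26.2% of all 25-base windows of the gene, so the tags held the motif about as often as the gene at large.

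Every listed DNA tag of Msi2 lay on chromosome 11. No pair with another chromosome was listed in either table. Inside the gene, Input had 2383 DNA tags (44.1%, interval 42.8 to 45.4) and H3K27me3-RADIP 2450 (33.7%, interval 32.6 to 34.8). Downstream of it lay 1624 and 2544 DNA tags, and upstream 1395 and 2276. Of the outside tags, 53.8% (interval 52.0 to 55.6) and 52.8% (51.4 to 54.2) were downstream. The in-gene count was thus almost equal, at a ratio of 1.03 (interval 0.972 to 1.09), while the outside count was larger in H3K27me3-RADIP on both sides. The whole H3K27me3-RADIP table is 1.08 times as large as the Input table.

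The 25-kb DNA bins inside the gene formed a plateau. The 14 bins wholly inside it held 130 to 199 pairs in Input, with a median of 155.5, and 143 to 202 in H3K27me3-RADIP, with a median of 159. The fullest bin of both tables was chr11:88475000-88499999, with 199 and 202 pairs, which straddles exon 7. The SD over the 14 bins was 17.9 and 17.7 pairs, against 12.6 and 12.9 from counting error alone. The H3K27me3-RADIP over Input ratio of these bins ran from 0.906 to 1.197. In the 16 bins that overlap the gene, all other RNAs together accounted for 18 pairs (Input) and for 0 (H3K27me3-RADIP).

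Downstream of the gene the tables parted. From the end of the gene to 250 kb beyond it, Input had 595 pairs and H3K27me3-RADIP 977, a ratio of 1.64 (interval 1.48 to 1.82), or 1.51 (1.37 to 1.68) after scaling by all pairs. In each of the first 10 bins H3K27me3-RADIP had more pairs. The nearest bin, chr11:88300000-88324999, went from 97 pairs (Input) to 164 (H3K27me3-RADIP). The next, which holds the small gene Ccdc182, held 84 and 133. The bin chr11:88100000-88124999 in Cuedc1, whose product has a ubiquitin-binding CUE domain, held 40 and 81. The excess did not go on past the 10th bin. This bin, with parts of Cuedc1 and Vezf1, held 43 and 68 pairs, the 11th, with Srsf1 and Vezf1, held 37 and 30, and the 12th 31 and 33. From 250 to 500 kb downstream the counts were 397 and 440, a scaled ratio of 1.02 (interval 0.893 to 1.17), and from 500 kb to 1 Mb they were 419 and 564, a scaled ratio of 1.24 (1.09 to 1.41).

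The first 5 bins had no RNA tag of a local gene in either table, with H3K27me3-RADIP over Input ratios of Msi2 pairs from 1.19 to 1.69. RNA tags of the bins' own genes numbered 11 and 26, 9 and 15, 17 and 22, and 22 and 30 in Input and H3K27me3-RADIP over the 6th to the 9th bin, all in Cuedc1. They numbered 48 and 20 in the 11th bin and 36 and 14 in the 12th. Over the whole chromosome, Cuedc1 RNA had 65 and 95 listed pairs and RNA of the splicing factor gene Srsf1 57 and 21. The Msi2 excess was present both in bins without listed local RNA tags and in bins with them. A bin without them can still hold local RNA below the listing limit, and the part of local RNA in the excess was not tested. H3K27me3 itself was not measured in these tables, so the level of the mark in these bins is not analysed here.

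Near the start site upstream the tables were closer. Within 250 kb upstream they had 581 and 642 pairs, a scaled ratio of 1.02 (interval 0.911 to 1.14). Farther out the contrast between the sides was reversed in part, with upstream scaled ratios of 1.197 (interval 1.03 to 1.40) from 500 kb to 1 Mb and 1.31 (1.08 to 1.58) from 1 to 2 Mb, beside 0.785 (0.604 to 1.02) from 1 to 2 Mb downstream. The fullest upstream bin, chr11:88750000-88774999, held 98 and 116 pairs. Counts stayed between 61 and 98 in Input from the 1st to the 6th bin, up to Akap1, the nearest coding gene upstream, which encodes a mitochondrial anchor of protein kinase A. The 6th bin, in Akap1, held 61 and 62 pairs, the 7th, past Akap1, held 31 and 27, and the 8th 11 and 28. Akap1 itself contained 100 and 109 Msi2 DNA tags.

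**Figure D2:**
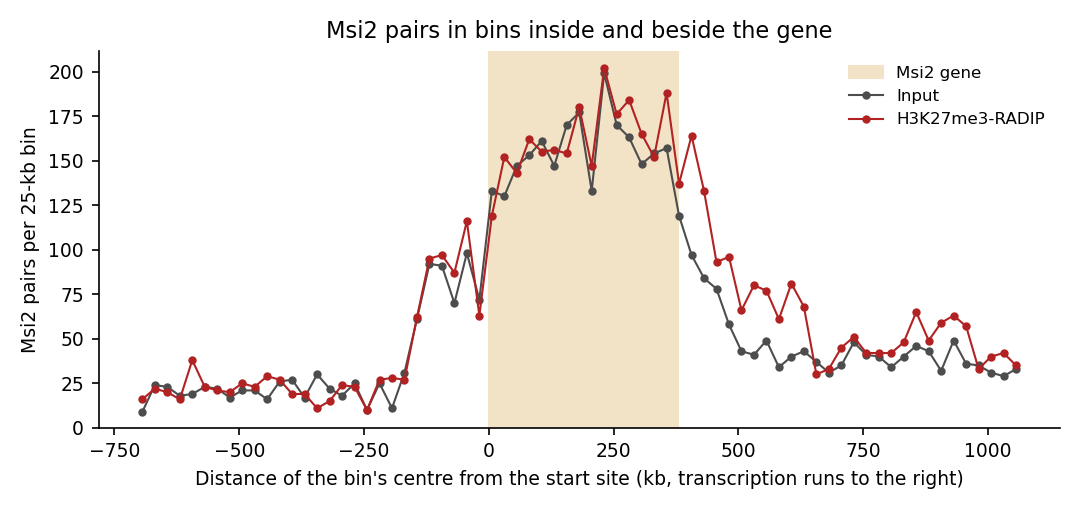
Msi2 pairs per 25-kb bin (y axis) against the distance of the bin from the start site (x axis, kb, with transcription running to the right) in Input (grey) and H3K27me3-RADIP (red), and the shaded span is the gene. The lines lie close to each other upstream and inside the gene, and H3K27me3-RADIP lies above Input in the first 10 bins past its end.

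The part of the gene that an RNA tag came from went with where its DNA tag lay. Among RNA tags of the 5′ part in Input, 468 of the in-gene DNA tags were in the same part, 216 in the middle part and 107 in the 3′ part. For RNA tags of the 3′ part the order was reversed, with 74, 106 and 364. The downstream share rose from 24.8% (interval 22.7 to 26.97) for 5′ RNA tags to 36.1% (33.7 to 38.6) for 3′ RNA tags in Input and from 29.8% (27.9 to 31.8) to 39.0% (36.9 to 41.2) in H3K27me3-RADIP. The upstream share did not follow the RNA position, at 25.9%, 25.7% and 25.9% from the 5′ to the 3′ part in Input and 31.2%, 32.2% and 30.0% in H3K27me3-RADIP. The step at exon 6 was present wherever the DNA tag lay. In H3K27me3-RADIP it was 4.44-fold (interval 3.22 to 6.14) for in-gene DNA tags, 6.59-fold (4.59 to 9.45) for outside tags within 2 Mb and 4.79-fold (2.92 to 7.85) for tags over 2 Mb away.

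Distances between the RNA and DNA tag were long and were longer in H3K27me3-RADIP. The median was 232 kb in Input (interval 217 to 244), with quartiles at 60.7 and 632 kb. For H3K27me3-RADIP it was 359 kb (interval 341 to 374), with quartiles at 96.8 and 1012 kb. Over all RNAs the cis medians were 44.0 and 68.5 kb. Msi2 pairs of under 1 kb made up 2.26% and 1.46%, those of 1 to 10 kb 6.07% and 4.58%, and those of 10 to 100 kb 24.5% and 19.4%. The class from 100 kb to 1 Mb was the largest in both, with 54.7% (interval 53.4 to 56.0) for Input and 49.3% (48.2 to 50.5) for H3K27me3-RADIP. In pairs, this class held 2956 and 3587. Only the class over 1 Mb had a larger share in H3K27me3-RADIP, with 671 pairs or 12.4% (interval 11.6 to 13.3) in Input and 1834 pairs or 25.2% (24.2 to 26.2) in H3K27me3-RADIP. Over all RNAs in cis this class held 4.61% and 7.33%.

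**Figure D3:**
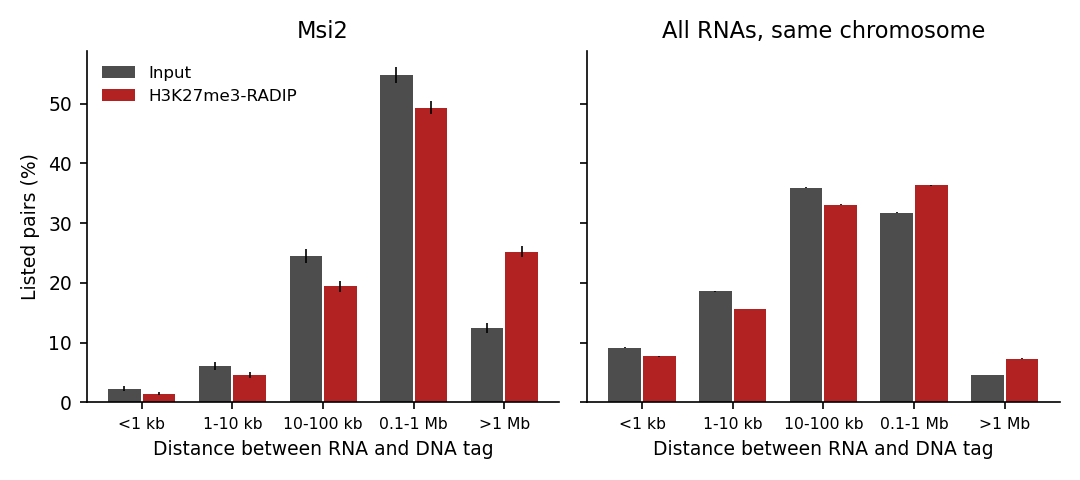
Share of listed pairs (y axis, percent) in 5 classes of distance between the RNA and DNA tag (x axis) for Msi2 (left) and for all RNAs on the same chromosome (right), in Input (grey) and H3K27me3-RADIP (red), with 95% Wilson intervals as error bars. For Msi2 the class over 1 Mb goes from 12.4% to 25.2% and the shares of all shorter classes are smaller in H3K27me3-RADIP, although the class from 100 kb to 1 Mb went from 2956 to 3587 pairs.

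The excess over 1 Mb lay in bins that only the H3K27me3-RADIP table lists. Over the 111 bins in both tables, pairs over 1 Mb made up 8.03% (Input) and 7.90% (H3K27me3-RADIP) of the Msi2 pairs. Input listed 137 bins and H3K27me3-RADIP 243. Of the 269 bins in all, 132 (49.1%, interval 43.1 to 55.0) were listed in H3K27me3-RADIP only and 26 (9.67%, interval 6.68 to 13.8) in Input only. Over all combinations of an RNA and a bin, the background was 28.0% in H3K27me3-RADIP only and 17.4% in Input only. Among bins over 2 Mb from the middle of the RNA tags, 112 of 135 Msi2 bins (83.0%, interval 75.7 to 88.4) were in H3K27me3-RADIP only, against 62.8% of all such cis combinations, and 14 (10.4%) were in Input only, against 16.6%. Since Msi2 was chosen for its reach, nothing is read from its distance to these backgrounds.

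Being listed was a matter of pair count. In each table all Msi2 bins with the same number of pairs shared 1 q-value, whichever bin it was, and the lowest count was 9 pairs for Input and 8 for H3K27me3-RADIP. A bin missing from Input can therefore still have held up to 8 pairs, and a bin missing from H3K27me3-RADIP up to 7, if the same limit held for the bins left out. With at least 9 pairs asked of both tables, 137 and 203 bins stayed, and with at least 10 pairs 110 and 173. Of the bins listed in H3K27me3-RADIP only, 65 had at least 10 pairs and 4 had at least 18. No bin listed in Input only reached 18. Among 56 Msi2 bins listed in both tables with at least 50 pairs in all, none differed by over 2-fold after scaling in either direction, against 2.44% higher and 6.88% lower over all combinations. The largest scaled ratio among these 56, 1.87, was in the Cuedc1 bin with 40 and 81 pairs.

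Far from the gene, most listed pairs were in H3K27me3-RADIP. This rests on bins that H3K27me3-RADIP alone listed, since over the bins in both tables the scaled ratio of pairs over 2 Mb from the gene was 1.29 (interval 0.989 to 1.68), against 5.31 (4.59 to 6.13) over all listed bins. From 2 to 10 Mb downstream of the gene Input listed 92 pairs in 9 bins and H3K27me3-RADIP 321 pairs in 32 bins. From 2 to 10 Mb upstream Input had 124 pairs in 12 bins and H3K27me3-RADIP 518 pairs in 42 bins. Past 10 Mb, Input listed none and H3K27me3-RADIP had 139 pairs in 16 bins downstream and 265 pairs in 28 bins upstream. A stretch of 2 Mb, chr11:94000000-95999999, held 27 of the 109 bins over 2 Mb away that were listed in H3K27me3-RADIP only, with 339 pairs. It also held 7 bins listed in both tables and 3 in Input only.

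The genes of the far bins named here were picked after their values were seen, and no count of such genes was tested. The fullest far bin was chr11:94925000-94949999 with the collagen gene Col1a1, 6.21 Mb upstream, where H3K27me3-RADIP had 34 pairs at a q-value of 2.35e-20 and Input listed none. The 34 pairs came from 31 RNA positions spread over 335 kb of Msi2 and 31 DNA positions spread over 21.5 kb. Of all RNAs, only 2 others were listed in this bin in H3K27me3-RADIP, with 15 pairs together, and none in Input. The next fullest of the bins that only H3K27me3-RADIP listed were in the calcium channel gene Cacna1g (22 pairs), in Mycbpap (19 pairs) and in the transporter gene Abcc3 (18 pairs). A neighbouring bin of Cacna1g was listed in both tables, with 9 and 19 pairs.

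In the Hoxb cluster, which encodes body-axis transcription factors, Msi2 was listed in 3 bins from Hoxb9 to Hoxb3. These were absent from Input and held 8, 10 and 15 pairs in H3K27me3-RADIP, the last in Hoxb3. The bin of the T-box gene Tbx2, which also holds part of Bcas3, had 16 pairs from 13 RNA and 13 DNA positions. Pairs of other RNAs in it numbered 108 (Input) and 253 (H3K27me3-RADIP), and it had the highest CpG count of the bins named here, 871. A bin of Tbx4 was listed in both tables with 11 and 12 pairs, and the bin beside it in H3K27me3-RADIP only with 8. The bins of the homeobox genes Lhx1 and Dlx3 with Dlx4 held 9 and 10 pairs in H3K27me3-RADIP and were absent from Input. Far bins of other genes that H3K27me3-RADIP alone listed had similar counts, such as Rsad1 (12 pairs), Rffl (10 and 12), Synrg with Dusp14 (11) and Med9 (8). The share of developmental genes among the far bins was not counted, so nothing is read from the families named here. Counts of 8 to 10 are at the listing limit, and the q-value at 8 pairs was 0.0972. The farthest bin, 85.2 Mb from the gene in Sfi1, held 11 pairs. It also paired with 34 other RNAs in H3K27me3-RADIP and with 13 in Input, with 705 and 402 pairs, whereas the Hoxb3 bin paired with 3 and 1. The farthest bin after it lay 43.7 Mb away.

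Over 2 Mb away, Input shared 9 of its bins with H3K27me3-RADIP and listed 12 alone, some of them beside bins that only H3K27me3-RADIP listed. Of the 12 bins over 2 Mb away listed in Input only, named genes were Acaca, Bcas3 (2 bins), Utp18, Luc7l3 with Gm21885, Spop and Ngfr, and the other 5 held no coding gene. The bins of Bcas3, Acaca, Utp18, Luc7l3 and Spop had 19 to 123 RNA tags of local genes in Input, and the other 6 of the 12 had 0. Of the 109 bins that only H3K27me3-RADIP listed, 46 had 0. The fullest Input-only bin, chr11:84725000-84749999, held 16 pairs and no coding gene.

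**Figure D4:**
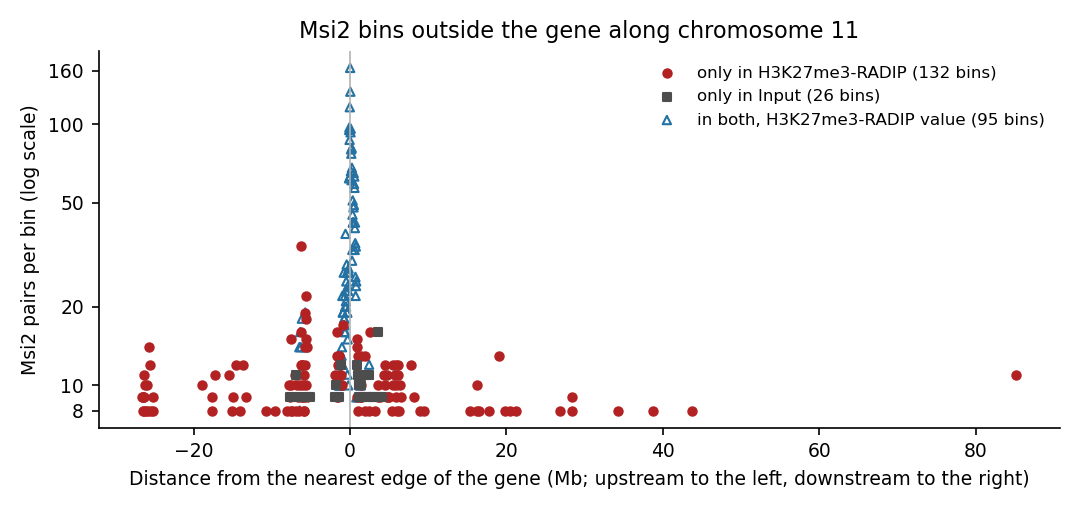
Msi2 pairs per bin (y axis, log scale) for the 253 bins outside the gene against the distance from the nearest edge of the gene (x axis, Mb, upstream to the left), with bins only in H3K27me3-RADIP (red dots), only in Input (grey squares) and in both (blue triangles, H3K27me3-RADIP value). Past 10 Mb only red dots are seen, all between 8 and 14 pairs.

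CpG content and gene starts were compared between far bins by the table that listed them. Over 2 Mb from the gene, the 109 bins listed in H3K27me3-RADIP only had a median of 344 CpG dinucleotides (quartiles 286 and 403) and a GC content of 49.0%. The 12 bins listed in Input only had 262 (quartiles 209 and 286) and 43.5%, and the 4445 bins of chromosome 11 at this distance that list no Msi2 had 225 (quartiles 150 and 308) and 43.4%. A coding start site was present in 54 of the 109 bins (49.5%, interval 40.3 to 58.8), in 3 of the 12 (25%, interval 8.89 to 53.2) and in 24.9% of the unlisted bins. The intervals of the first and second of these overlap. They treat bins as independent, but many of the 109 bins are neighbours. The stretch chr11:94000000-95999999 holds 27 of them and chr11:82000000-82999999 holds 11. The part of the gene density of such stretches in the contrast was not tested. The 9 far bins listed in both tables had 387 CpG and a start site in 5. Outside the gene and within 2 Mb of it, the medians were 272 CpG in the 23 bins listed in H3K27me3-RADIP only, 295 in the 86 listed in both, 221.5 in the 14 listed in Input only and 242 in the 37 unlisted bins.

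Listed pairs of other RNAs in the same bins are given as sums with no error, since an RNA below the listing limit of a table counts as 0 there. In the 109 far bins that H3K27me3-RADIP alone listed for Msi2, they numbered 2168 (Input) and 3921 (H3K27me3-RADIP), and 74 of the 109 bins had more after scaling in H3K27me3-RADIP, beside 1538 of the 4445 unlisted bins and 8 of the 9 bins in both tables. In the 9 far bins of both tables they numbered 176 and 357, where Msi2 had 97 and 126. In the 12 bins that Input alone listed they numbered 540 and 476, and in the unlisted bins 90142 and 98989. The part of CpG content and of the other RNAs' counts in the Msi2 counts was not tested. Of the 109 bins, 14 listed no RNA but Msi2 in H3K27me3-RADIP.

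**Figure D5:**
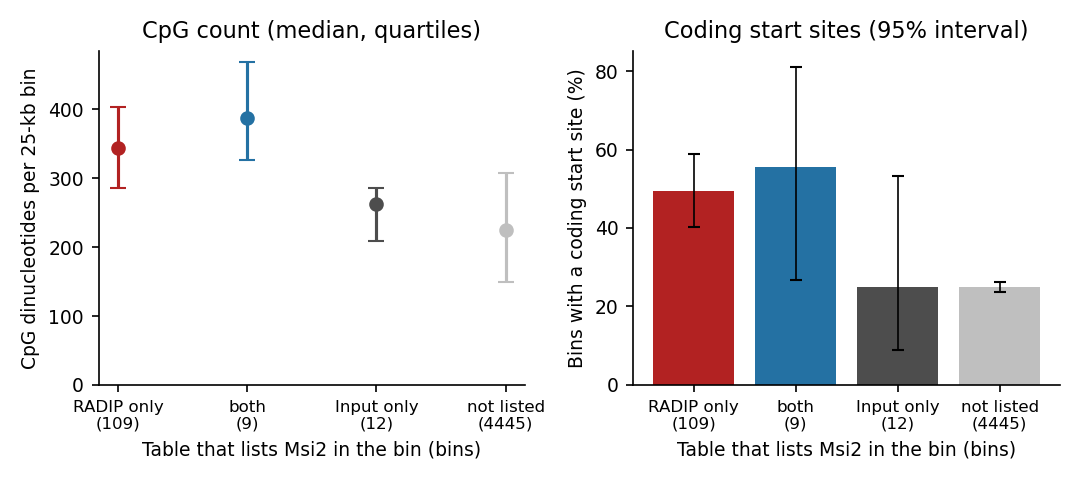
Features of chromosome 11 bins over 2 Mb from Msi2 by the table that lists Msi2 there (x axis, number of bins in brackets), as CpG dinucleotides per bin (left, median with quartiles) and percent of bins with a coding start site (right, with 95% Wilson intervals). Bins listed in H3K27me3-RADIP only have a median of 344 CpG against 225 in unlisted bins, and 49.5% against 24.9% hold a start site. The intervals treat neighbouring bins as independent.

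Among RNAs of protein-coding genes Msi2 was one of the most often paired. By number of pairs it was 12th in Input and 8th in H3K27me3-RADIP of the 185 with at least 1000 pairs in both tables, whose medians were 1677 and 1827. Per kb of gene it was 26th with 14.2 pairs and 19th with 19.2. Its median distance ranked 45th and 29th, and its share over 1 Mb 47th and 21st. The ratio of its listed bins between the tables, 1.77, was the highest of the 185, whose median was 1.15. This ratio rests on unequal lowest counts, 9 pairs in Input and 8 in H3K27me3-RADIP. With at least 9 pairs in both, Msi2 had 137 and 203 bins, and no rank was computed at that limit. The share over 1 Mb was 12.8 percentage points larger in H3K27me3-RADIP, the 6th largest difference, beside a median of 2.99 points. The ratio of its pairs after scaling by all pairs was 1.24 (interval 1.198 to 1.286) and ranked 17th. Among the 120 of these RNAs whose genes are 0.5 to 2 times as long, the ranks were 1st for the bin ratio, 4th for the difference over 1 Mb and 10th for the pair ratio. RNAs are not replicates, so these ranks only describe the tables.

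The RNAs with the most similar distance profile, by the sum of absolute differences over the 5 class shares in both tables, were Zfp407 (14.9 percentage points), Bcas3 (15.7), Gli2 (16.1), Fars2 (17.3) and Gpc3 (18.02). The median difference over the 184 RNAs compared with Msi2 was 60.0 points. Their shares over 1 Mb were 14.4% to 17.3% in Input and 20.5% to 23.6% in H3K27me3-RADIP, so in each of the 5 the Input share was above and the H3K27me3-RADIP share below that of Msi2. Bcas3, which lies on chromosome 11 as Msi2 does, had 125 and 144 bins, and none of the other 4 gained as many bins as Msi2.

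Genes related to Msi2 had fewer pairs, and all are much shorter. Of 10 genes with a tandem pair of RNA recognition motifs, 9 were listed in both tables and Hnrnpa0 only in Input. Msi1, the paralogue with a neural pattern of expression, was listed with 10 (Input) and 24 (H3K27me3-RADIP) pairs, or 0.383 and 0.920 per kb of gene against 14.2 and 19.2 for Msi2. After scaling, the Msi1 ratio was 2.21 (interval 1.06 to 4.63). Of the 9, 2 were higher in H3K27me3-RADIP (Msi1 and Hnrnpa1) and 7 lower, and their median ratio was 0.793. Over all 8756 RNA names listed in both tables, 3920 were higher and 4836 lower, with a median ratio of 0.941. Hnrnpab, which packages nascent transcripts, had the most pairs with 368 and 332, or 54.5 and 49.2 per kb, above Msi2.

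The 16 genes known as mRNA targets or partners of Musashi proteins went both ways. Of them 13 were listed in both tables, with 7 higher and 6 lower after scaling and a median ratio of 1.06, beside the 3920 higher and 4836 lower of all RNA names. Numb, the Notch inhibitor whose mRNA is the best known Musashi target, had 192 and 257 pairs, a scaled ratio of 1.23 (interval 1.02 to 1.49). Tgfbr1, a receptor of the TGF-beta pathway, had 98 and 155 (1.46, interval 1.13 to 1.88) and its effector Smad3 392 and 491 (1.16, interval 1.01 to 1.32). Lower in H3K27me3-RADIP were Tet2, a DNA demethylase, with 284 and 229 (0.744, interval 0.625 to 0.885) and Lin28b, a pluripotency RNA-binding protein, with 112 and 80 (0.659, interval 0.494 to 0.878). So were the translation factor gene Eif4g1 with 114 and 91 (0.736, interval 0.559 to 0.970) and Ikzf2, a zinc finger factor, with 20 and 9 (0.415, interval 0.189 to 0.911). Sox2 was listed only in H3K27me3-RADIP, Hoxa9 only in Input and Myc in neither.

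As a check of the cell type, 4 of 10 pluripotency markers were listed in Input and 5 in H3K27me3-RADIP, beside 2 and 3 of 10 markers of differentiated lineages and 1 and 2 of 6 feeder fibroblast markers. Of all annotated coding gene names, 41.9% and 43.3% were listed, so these counts do not separate the cell types. The pluripotency markers had 2972 and 3103 pairs together, most of them from the long gene Esrrb (2388 and 2500), the differentiated markers 38 and 77, and the feeder markers 11 and 19. The defining markers Pou5f1 and Nanog, both short genes, had no listed pair. The Col1a1 bin described above concerns the DNA side, and Col1a1 RNA had 0 and 7 pairs.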

How the data were processed

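The authors split reads at the bridge adaptor, mapped RNA and DNA tags to mm10 (BWA 0.7.15-r1140 is named in the submitters' processing notes), kept unique pairs, annotated RNA tags with GENCODE M25, modelled background over 25-kb DNA bins and merged the libraries of each condition. The deposited q-values (adjusted p-values) are the authors', 1 for each RNA and bin, and only those up to 0.1 are listed. Lines with the RNA name Msi2 were counted. Samples were grouped by merged table. Tag centres, distances and bins were computed from the deposited positions with Python 3.11.15, numpy 2.4.6 and pandas 2.3.3, and GENCODE M21 gave gene models on the same build. Shares have 95% Wilson intervals, ratios have 95% intervals on the log scale from counts, and medians have order-statistic intervals. No test was run. The functions were tested on simulated data. The members, lists and measures were chosen with earlier results of these data known. Named genes were Msi2, the 5 RNAs most alike, genes of the 5 fullest outside bins with the nearest coding genes, 10 relatives and 16 Musashi targets or partners, and other genes were named after their values were seen. Alternatives covered the q-value limit, repeated tags, scaling, shared bins, distance definitions, bin size and a common lowest pair count. Single libraries were not analysed here.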

Additional observations from a re-analysis of the deposited data

How the results depend on the processing

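Of 81 alternative values, 41 stayed within the counting interval or 1.5 times the reported value and 40 moved. None turned a direction except where named here. With q-values of at most 0.01, the scaled pair ratio was 1.198, the ratio over 2 Mb from the gene 6.84 in place of 5.31, the share over 100 kb 65.6% in Input and 72.3% in H3K27me3-RADIP, the share over 1 Mb 8.45% and 18.7%, the median distance 207.9 and 296.6 kb, the in-gene share 46.2% and 36.7%, and the bins in 1 table only 13 and 76. With only the combinations in both tables these were 1.14, 1.29 (interval 0.989 to 1.68, which includes 1), 65.5% and 68.6%, 8.03% and 7.90%, 206.5 and 230.2 kb, and 46.3% and 41.6%, with 57.8% of outside tags downstream in H3K27me3-RADIP; here the order of the tables turned for the share over 1 Mb and for the downstream share, where Input had 52.9%, and bins of 1 table are left out by construction. Distance to the nearest gene edge gave 43.6% and 54.2% over 100 kb, and distance to the start site gave medians of 326.4 and 443.1 kb. Bins overlapping the gene gave in-gene shares of 45.6% and 35.4%. Within 1 Mb, 56.4% and 61.6% of outside tags were downstream, also the other order. Bins of 100 kb numbered 55 and 123. A common lowest count of pairs was chosen after seeing the data. At 9 pairs the ratio over 2 Mb was 4.01 and the H3K27me3-RADIP share over 1 Mb 21.8%. At 10 pairs these were 6.82 and 18.7%, the Input share was 8.45%, and 13 and 76 bins were in 1 table only. No paired analysis was possible because the merged tables carry no replicate number, and leaving out each replicate was not run for the same reason.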
